A study of Mus musculus with 6 samples.

Results

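Amino acid transporters were followed in livers of WT and of *Fmo5*-/- mice. The genes are those listed by the deposited comparison table under a symbol of the solute carrier (SLC) families SLC1, SLC3, SLC6, SLC7, SLC36, SLC38 and SLC43. Of 54446 rows, 67 carry such a symbol. Of these, 63 are carriers or carrier subunits, and 4 (*Slc7a6os*, *Slc36a1os*, *Slc36a3os* and *Slc6a19os*) are genes on the strand opposite to a carrier and are no carriers themselves. The families were chosen by name, so SLC6 brings in carriers of creatine, betaine and monoamines beside those of amino acids.

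The libraries come from 3 WT and 3 *Fmo5*-/- males, 32 weeks old and kept on standard chow in adjacent cages. The strain is C57BL/6J in the study's methods, and the labels give it as C57BL/6. FMO5 is a flavin-containing monooxygenase of liver and gut, and the mice lack it in every tissue, so a liver value does not separate a change made in the liver from one that follows from other organs. The study asked which hepatic genes and metabolites differ between these genotypes. Messenger RNA was sequenced as single reads, with 1 library per mouse.

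Between 44886286 and 52338675 reads per library were counted on genes, 66.2% to 69.2% of the reads. *Fmo5* itself had normalized counts of 30239.7 to 39808 in the WT mice and of 1071 to 1194 in the *Fmo5*-/- mice. A normalized count is the raw count of a gene, brought to the mean of the 6 library sizes after scaling by TMM, the normalization of edgeR. The 8 hepatocyte markers checked, *Alb* and *Apoa1* among them, were all tested, and their summed normalized counts overlapped between the genotypes (5356886 to 6846730.1 and 5470624 to 6728784).

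Amino acids cross the plasma membrane on carriers that differ in substrate, in driving ion and in the cell type that uses them. In liver, the sodium-coupled SLC38 carriers of hepatocytes take up glutamine, alanine and other small neutral amino acids, which feed urea and glucose synthesis. The light chains of SLC7 exchange large neutral, cationic or acidic amino acids and reach the membrane only when bound to a heavy chain of SLC3. Several of these genes are known targets of ATF4, the transcription factor that GCN2 and other kinases induce when amino acids are short.

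*Slc38a3* and *Slc38a4* had the highest levels of the 37 tested rows in both genotypes. Levels between genes are given as RPKM, that is counts over exon length and library size, as a mean of the 6 mice. *Slc38a3*, the system N glutamine carrier of hepatocytes, stood at 305.8 RPKM and *Slc38a4*, a system A carrier of small neutral amino acids, at 257.3 RPKM. Together they held 66.6% of the summed RPKM of the 37 tested rows. The next in order were *Slc6a13*, a GABA and taurine carrier, at 90.02 RPKM, *Slc7a2*, a cationic amino acid carrier, at 37.99 RPKM, and *Slc6a12*, a betaine carrier, at 28.3 RPKM. *Slc3a1*, *Slc38a10*, *Slc1a2*, *Slc6a6*, *Slc38a2*, *Slc3a2* and *Slc36a1* followed between 17.8 and 8.61 RPKM. These 12 held 95.6% of the sum, and *Slc43a3*, the next, stood at 6.91 RPKM.

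The order was not sharp throughout. In the WT mice, *Slc38a3* (258 to 308 RPKM) overlapped *Slc38a4* (269 to 285 RPKM), whereas in the *Fmo5*-/- mice *Slc38a3* (279 to 360 RPKM) lay above *Slc38a4* (217 to 269 RPKM). *Slc38a4* lay above *Slc6a13*, and *Slc6a13* above *Slc7a2*, in both genotypes. From *Slc3a1* down to *Slc3a2*, each of the 5 neighbouring pairs overlapped in both genotypes.

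**Figure D1:**
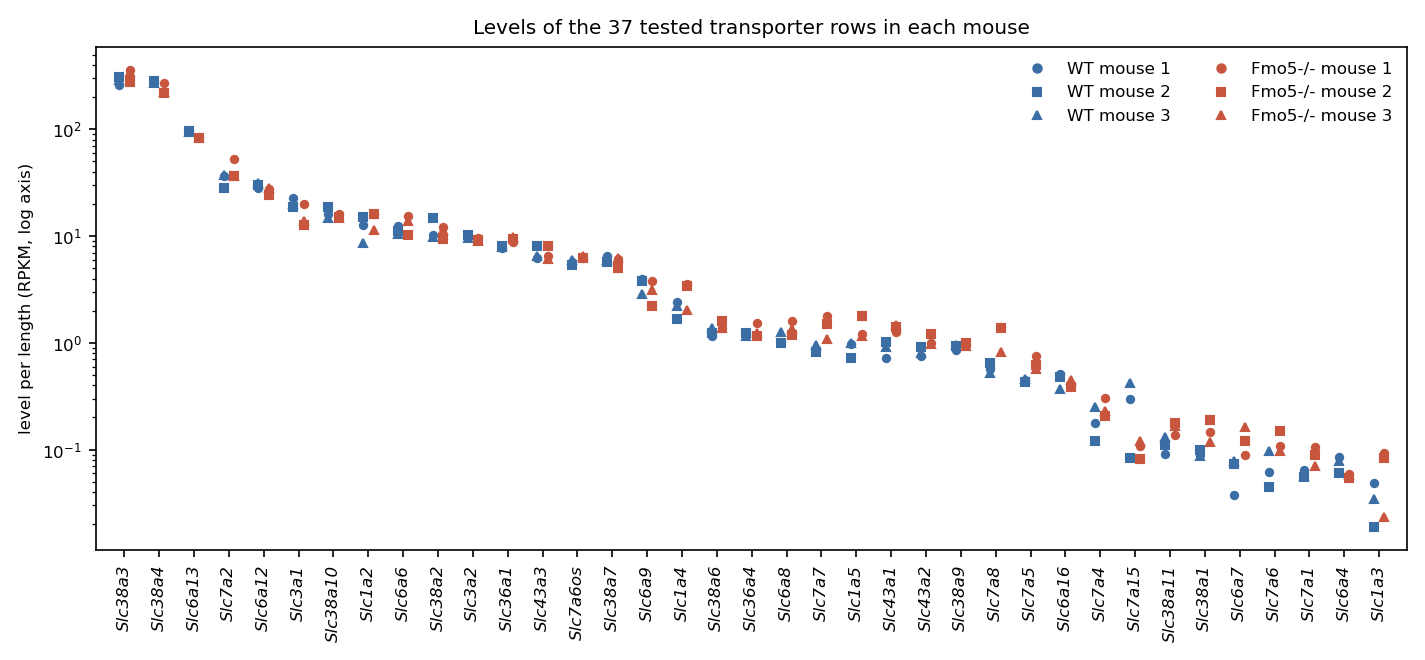
Level per length (RPKM, log axis) of the 37 tested rows, in order of their mean, with 1 point per mouse (blue WT, red *Fmo5*-/-, symbols mark the mouse). *Slc38a3* and *Slc38a4* stand at 217 RPKM or more in every mouse, and the rows from *Slc7a8* rightward lie below 1.42 RPKM.

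The remaining 30 rows were too low to be tested, with totals of 0 to 41 counts over the 6 libraries. Of these, 28 had fewer than 10 counts in every library, and no library held more than 11. *Slc6a21* and *Slc6a20b* had the most, 41 and 36 counts, and *Slc7a11*, the cystine carrier that supplies glutathione synthesis, had 20. The glutamate carriers *Slc1a1* and *Slc1a7* had 23 counts each, as did the cationic carrier *Slc7a3*. *Slc36a2* and *Slc1a6* had 14 each, *Slc38a5* 13 and *Slc7a13* 10 counts. *Slc6a19*, the neutral carrier of kidney and gut, had 9 counts. *Slc7a9* and *Slc6a11* had 7, *Slc7a10* 6, *Slc36a3os* 5, *Slc7a14* and *Slc6a20a* 3, and *Slc36a1os*, *Slc36a3* and *Slc6a14* 2 counts each. *Slc6a2*, *Slc6a3*, *Slc6a19os*, *Slc38a8*, *Slc6a15* and *Slc6a18* had 1 count each. No count was found for *Slc7a12*, *Slc6a17* and *Slc6a5*. A row without counts could still have up to 3 counts, or 0.0573 to 0.0668 CPM (counts scaled by library size alone), a limit that covers counting error only. Chromosome 3, which carries *Fmo5*, holds 4 of the 67 rows (*Slc7a11*, *Slc7a12*, *Slc7a14* and *Slc6a17*), and 0 of them could be tested.

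Between the genotypes, no transporter passed an adjusted p under 0.05 in edgeR's quasi-likelihood test, with or without the study's limit of a mean normalized count of 500. Over all genes, 1.37% of 16734 passed this threshold (0.675% higher and 0.693% lower), and 0.753% passed it with the limit. At an unadjusted p under 0.05, this held for 14 of the 37 tested rows (37.8%, against 21.8% of all tested genes). Of these, 11 were higher in the *Fmo5*-/- mice (29.7%, against 11.6% of all tested genes) and 3 were lower (8.11%, against 10.2%). DESeq2 called 4 of the 37 rows (10.8%, against 8.96% of the 15571 genes to which it gave an adjusted p), namely *Slc7a8*, *Slc43a1*, *Slc7a7* and *Slc38a1*. All 4 were called higher in the *Fmo5*-/- mice, as were 4.75% of all genes in that test. None of the 4 had a mean of 500 or more normalized counts as well, which 4.78% of all genes in that test had.

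The genotypes did not overlap, with every mouse of the one above every mouse of the other, in 17 of the 37 rows (45.9%, against 27.4% of all tested genes). Of these, 13 were higher in the *Fmo5*-/- mice (35.1%, against 13.9%) and 4 were lower (10.8%, against 13.5%). A higher mean in the *Fmo5*-/- mice was found for 24 of the 37 (64.9%, against 50.8%). The median log2 fold change was 0.22 over the tested rows and 0.0058 over all tested genes. Of the 37, 34 reached the count cutoff in all 6 libraries, while *Slc6a7*, *Slc7a6* and *Slc1a3* reached it in every *Fmo5*-/- library but not in every WT library. Of the 14 rows with an unadjusted p under 0.05, *Slc7a8*, *Slc7a7*, *Slc38a1* and *Slc43a1* had one under 0.05 whichever library was left out, and the other 10 did not without at least 1 library. Over the 34 alone, 9 were higher and 3 lower at an unadjusted p under 0.05, 15 did not overlap and the median was 0.20.

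**Figure D2:**
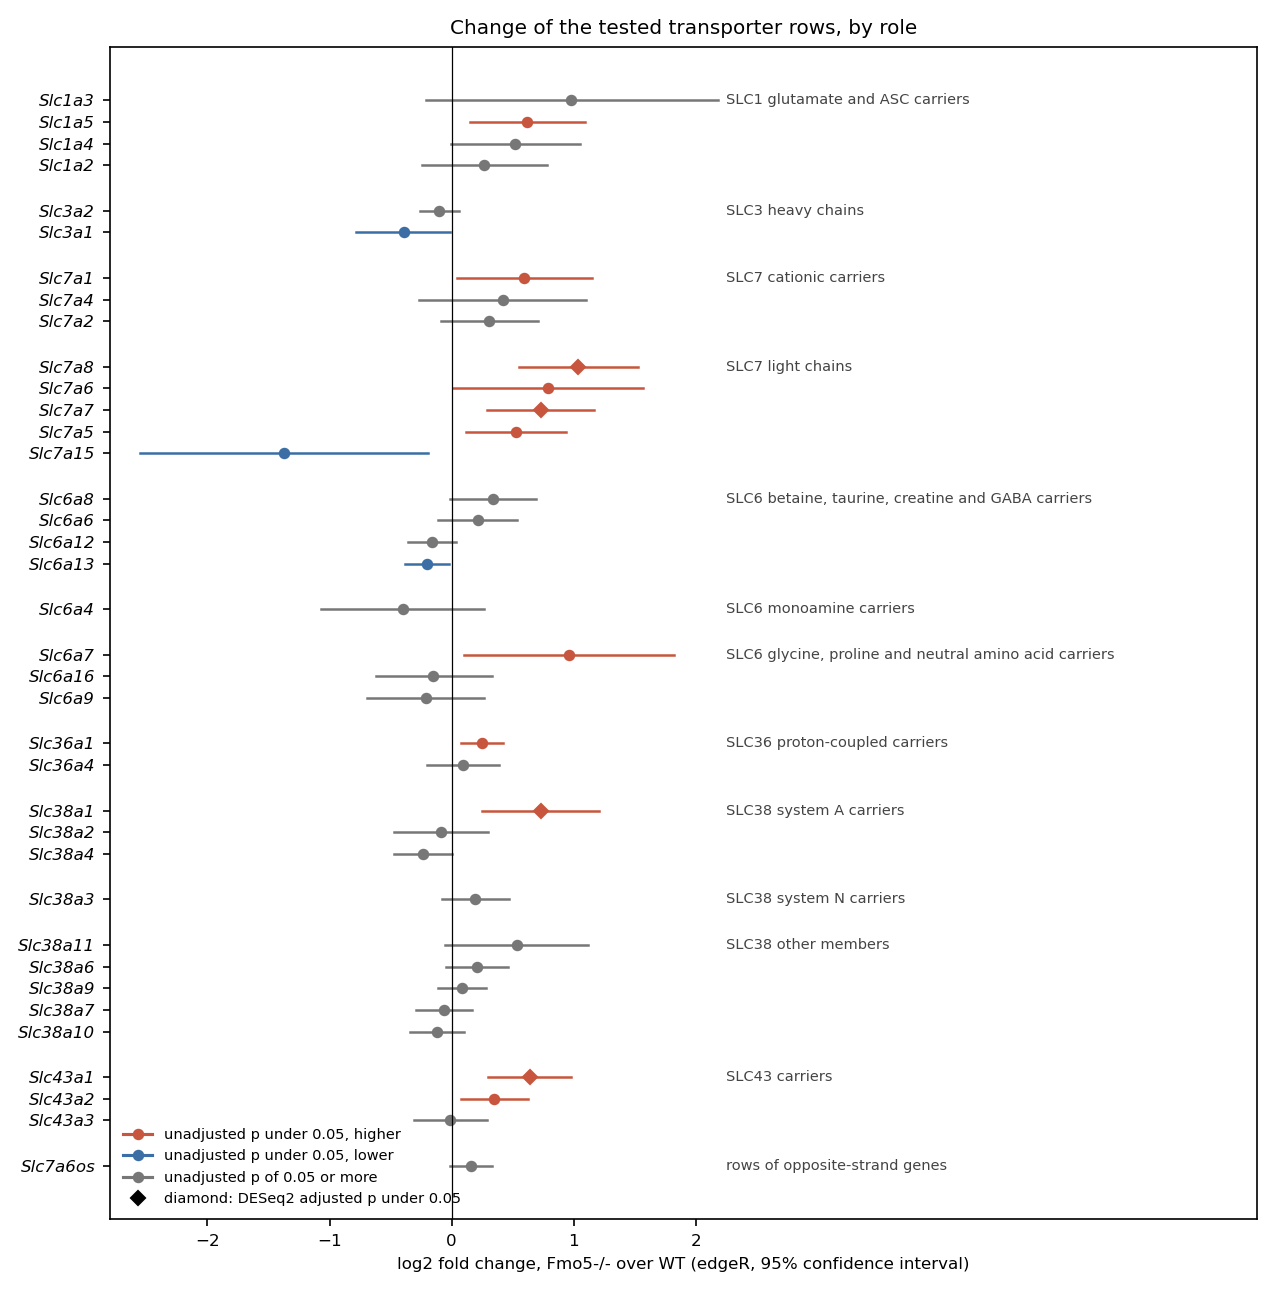
Log2 fold change, *Fmo5*-/- over WT, of each tested row from edgeR, grouped by role, with bars for the 95% confidence interval. Red and blue mark rows with an unadjusted p under 0.05 that were higher (11) or lower (3), and diamonds mark the 4 rows with an adjusted p under 0.05 in DESeq2.

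The direction went with the level. Of the 19 tested rows with a mean under 500 normalized counts, 16 had a higher mean in the *Fmo5*-/- mice (84.2%), and their median log2 fold change was 0.54. Of all 8915 tested genes at that level, 63.7% had a higher mean and the median was 0.12. At an unadjusted p under 0.05, 10 of the 19 were higher and 1 was lower, where 15.1% and 3.65% of all genes at that level were. Among the 16 of these rows that reached the count cutoff in all 6 libraries, 13 had a higher mean, 8 were higher and 1 was lower at that p, and the median was 0.53. Of the 18 rows with a mean of 500 or more, 8 had a higher mean and 10 a lower mean, with a median of -0.039. Among all 7819 genes at that level 36% had a higher mean and the median was -0.062. The carriers that make up most of the transporter mRNA were thus split in direction, and the higher ones were mostly those of low level in whole liver.

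**Figure D3:**
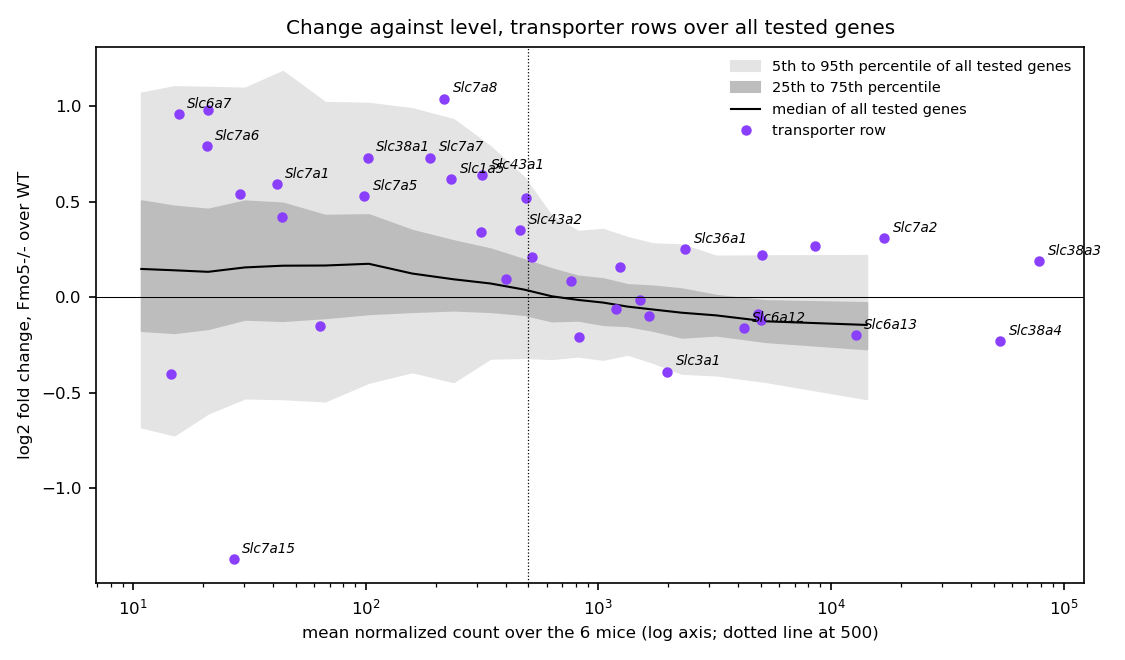
Log2 fold change against the mean normalized count over the 6 mice (log axis) for the tested rows (purple) over the bands of all tested genes in bins of level. Under 500 counts (dotted line) 16 of 19 rows lie above 0, and *Slc7a8* lies above the pale band that holds most genes of its level.

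Most light chains of SLC7 and both heavy chains of SLC3 had estimates of opposite sign. Of 5 tested light chains, 4 had a higher mean in the *Fmo5*-/- mice, each with an unadjusted p under 0.05 in edgeR, where 11.6% of all tested genes were higher at that p. The median log2 fold change of the 5 was 0.73. Without *Slc7a6*, which did not reach the count cutoff in every WT library, this held for 3 of 4, with a median of 0.63. Both heavy chains had a lower mean. All 5 light chains had means under 500 normalized counts, where 15.1% of all tested genes were higher at an unadjusted p under 0.05 and the median was 0.12. The heavy chains had means above 500, where 36% of all tested genes had a higher mean and the median was -0.062. Family and level were thus not separated here.

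*Slc7a8* (LAT2, an exchanger of neutral amino acids; chr14:54722209-54781946, minus strand, mm10) had 139, 159.6 and 129 normalized counts in the WT livers against 345, 334 and 199 in those of *Fmo5*-/- mice. The third *Fmo5*-/- mouse was closest to WT, and the groups did not overlap. The means were 142 ± 15.7 and 293 ± 81.1 (SD, n = 3 each), and the log2 fold change was 1.04 (SE, the standard error, 0.22, 95% interval 0.55 to 1.53). The adjusted p was 0.0554 in edgeR's quasi-likelihood test and 0.000443 in DESeq2.

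*Slc7a7* (y+LAT1, which exports cationic amino acids in exchange for neutral ones and is also used by macrophages; chr14:54369442-54417780, minus strand) lies 304 kb from *Slc7a8*. Its normalized counts were 139, 134 and 154 in the WT mice and 289, 243 and 176 in the *Fmo5*-/- mice, with the third *Fmo5*-/- mouse again nearest to WT and no overlap. The log2 fold change was 0.73 (SE 0.19), with an adjusted p of 0.083 in edgeR and 0.0158 in DESeq2. Of the exons of *Slc7a7*, 7% are shared with *Oxa1l* on the opposite strand, and reads lying in more than 1 gene were not counted.

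*Slc7a5* (LAT1, the carrier of leucine and other large neutral amino acids) had 81.5, 77.0 and 82.8 normalized counts in the WT livers against 135, 112 and 102 in those of *Fmo5*-/- mice. The groups did not overlap, and the WT mice varied less than the *Fmo5*-/- mice (SD 3.06 and 16.9). The log2 fold change was 0.53 (SE 0.18, adjusted p = 0.139 from edgeR, 0.147 from DESeq2). *Slc7a6* (y+LAT2) had only 13.8, 10.04 and 21.5 against 24.2, 33.0 and 21.6 normalized counts. Its highest WT mouse was almost level with its lowest *Fmo5*-/- mouse (log2 fold change 0.79, SE 0.34, unadjusted p = 0.0474 from edgeR). The log2 fold change ranged from 0.52 to 1.14 over the alternative analyses.

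*Slc7a15* had the lowest log2 fold change of the tested rows, but rests on few counts and on mice that differ among themselves. It had 43.4, 12.3 and 61.35 normalized counts in the WT livers against 15.8, 11.9 and 17.7 in those of *Fmo5*-/- mice. The second WT mouse lay among the *Fmo5*-/- mice, so the groups overlapped (log2 fold change -1.37, SE 0.52, edgeR adjusted p = 0.172). The value was -0.88 without the third WT mouse (edgeR adjusted p = 0.357) and -1.78 without the second (edgeR adjusted p = 0.0596).

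Of the heavy chains, *Slc3a2* (CD98, the partner of *Slc7a5*, *Slc7a6*, *Slc7a7* and *Slc7a8*) had 1728, 1758 and 1665 normalized counts in the WT livers against 1639.5, 1593 and 1563 in those of *Fmo5*-/- mice. The groups did not overlap, but the gap was small (log2 fold change -0.10, SE 0.071, 95% interval -0.26 to 0.058, edgeR adjusted p = 0.442). Over the alternative analyses, the log2 fold change of *Slc3a2* ranged from -0.12 to -0.04. *Slc3a1* (rBAT, the partner of *Slc7a9* in the cystine carrier of kidney) had 2494, 2051 and 2191 against 2190.1, 1392 and 1545 normalized counts. The first *Fmo5*-/- mouse lay within the WT range, and the log2 fold change of -0.39 (SE 0.17, edgeR adjusted p = 0.218) became -0.61 without it. *Prepl* on the opposite strand shares 26.5% of the exons of *Slc3a1*, and reads on the shared bases, lying in more than 1 gene, are in neither count. *Slc7a9* had 7 counts in all libraries together.

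The level of each light chain was also set against that of *Slc3a2* in the same mouse, a choice made after the values were seen. *Slc7a8* stood at 0.0584 ± 0.0050 of *Slc3a2* in the WT mice and at 0.129 ± 0.034 in the *Fmo5*-/- mice (SD, n = 3 each), on the RPKM scale. *Slc7a7* stood at 0.0884 ± 0.0092 and 0.157 ± 0.034 of *Slc3a2*, and *Slc7a5* at 0.0447 ± 0.0028 and 0.0692 ± 0.0083. *Slc7a6*, which did not reach the count cutoff in every WT library, had 0.00684 ± 0.0028 and 0.0127 ± 0.0029. In each of the 4 ratios the genotypes did not overlap. This restates the values above and is no further evidence, since each of the 4 light chains was higher and *Slc3a2* lower in every *Fmo5*-/- mouse, so no p is given. *Slc3a2* mRNA thus exceeded that of each of these light chains in every mouse, per length.

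**Figure D4:**
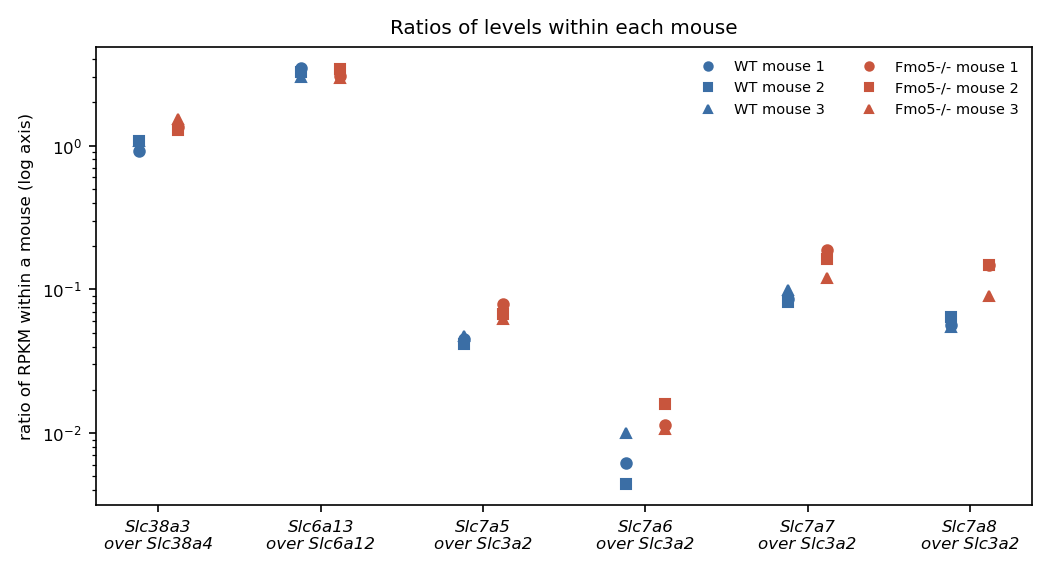
Ratio of RPKM of a pair of carriers within each mouse (log axis; blue WT, red *Fmo5*-/-, symbols mark the mouse). The genotypes do not overlap in 5 of the 6 ratios, in 4 of which (those over *Slc3a2*) this follows from the values of both genes, and overlap for *Slc6a13* over *Slc6a12*.

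The 3 tested cationic carriers of SLC7 had higher means in the *Fmo5*-/- mice, as had 50.8% of all tested genes, but 0 passed an adjusted p under 0.05 in edgeR or DESeq2. Of the 3, 1 (*Slc7a1*) was higher at an unadjusted p under 0.05 in edgeR, as were 11.6% of all tested genes. *Slc7a1* and *Slc7a4* had means under 500 normalized counts, where 63.7% of all tested genes had a higher mean and 15.1% were higher at that p. *Slc7a2* (CAT2, the main arginine carrier of hepatocytes) had 16146, 12487 and 16759.9 normalized counts in the WT livers against 23695, 16247 and 16271 in those of *Fmo5*-/- mice. The first *Fmo5*-/- mouse stood alone above the WT range, and the log2 fold change of 0.31 (SE 0.17, edgeR adjusted p = 0.346) became 0.10 without it and 0.19 without the second WT mouse. *Slc7a1* (CAT1, the arginine carrier of most other cells) was low, with 36.01, 31.2 and 31.7 against 59.6, 50.5 and 39.3 normalized counts. Its groups did not overlap (log2 fold change 0.59, SE 0.24, edgeR adjusted p = 0.199), and the log2 fold change ranged from 0.44 to 1.07 over the alternative analyses. *Slc7a4* had a log2 fold change of 0.42 (SE 0.30), and *P2rx6* on the opposite strand shares 13.3% of its exons.

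The 2 most abundant of the tested rows, both of SLC38, had estimates of opposite sign. *Slc38a3* (SNAT3) had 66469.8, 79433 and 74611 normalized counts in the WT livers against 92620.2, 71753 and 87598 in those of *Fmo5*-/- mice. The second *Fmo5*-/- mouse lay within the WT range (log2 fold change 0.19, SE 0.12, edgeR adjusted p = 0.396). *Slc38a4* (SNAT4) had 58204, 59173 and 55903 against 55932, 45114 and 46642 normalized counts. The first *Fmo5*-/- mouse lay within the WT range, and the log2 fold change was -0.23 (SE 0.11, edgeR adjusted p = 0.243). All tested genes in the highest bin of level, where *Slc38a3* and *Slc38a4* lie, had a median of -0.145 and quartiles of -0.270 and -0.028. At such counts the spread between mice, not counting error, limits these values.

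The ratio of *Slc38a3* to *Slc38a4* within a mouse is given as a description, since the pair was taken after both genes had been seen to have estimates of opposite sign. It was 0.922, 1.08 and 1.08 in the WT mice and 1.34, 1.28 and 1.52 in the *Fmo5*-/- mice (means 1.03 ± 0.092 and 1.38 ± 0.12, SD, n = 3 each), on the RPKM scale. The genotypes did not overlap, and the log2 difference was 0.42.

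*Slc38a2* (SNAT2), a system A carrier that ATF4 induces in starved cells, had 4401, 6355 and 4256 normalized counts in the WT livers against 5222, 4019 and 4872 in those of *Fmo5*-/- mice. The second WT mouse stood above all others, the groups overlapped, and the log2 fold change was -0.089 (95% interval -0.47 to 0.30). *Slc38a1* (SNAT1; chr15:96571418-96642913, minus strand), the system A carrier of brain and many other tissues and low in liver, lies 44.5 kb from *Slc38a2*. It had 75.2, 82.6 and 72.6 against 122, 159.7 and 100.1 normalized counts, without overlap. Its log2 fold change was 0.73 (SE 0.21), with an adjusted p of 0.0985 in edgeR and 0.045 in DESeq2. Of the 2 neighbours, *Slc38a1* had an interval (0.25 to 1.21) above 0, while the estimate of *Slc38a2* turned sign without the second WT mouse (0.12) or the second *Fmo5*-/- mouse (0.013). The difference between them was not tested.

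Among the other SLC38 members, *Slc38a10* had 5081, 5824 and 4660.3 normalized counts in the WT livers against 4997, 4706 and 4632 in those of *Fmo5*-/- mice, which overlapped (log2 fold change -0.12, SE 0.097). *Slc38a9*, the lysosomal arginine sensor of mTORC1, had a log2 fold change of 0.085, with a 95% interval of -0.11 to 0.28. *Slc38a6* and *Slc38a7* had values of 0.21 and -0.064 and overlapped. *Slc38a11* did not overlap (19.1 to 27.6 against 28.9 to 37.6 normalized counts), with a log2 fold change of 0.54 (SE 0.26, edgeR adjusted p = 0.272). Over the alternative analyses, this value ranged from 0.19 to 0.68.

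The carriers of branched-chain and other large neutral amino acids without a heavy chain, those of SLC43, gave 1 of the 4 rows that DESeq2 called. *Slc43a1* (LAT3; chr2:84838850-84863594, plus strand) had 201, 286 and 258 normalized counts in the WT livers against 354, 393 and 411 in those of *Fmo5*-/- mice. Its groups did not overlap, and the third *Fmo5*-/- mouse was the highest. The means were 248 ± 43.02 and 386 ± 29.3 (SD, n = 3 each), and the log2 fold change was 0.64 (SE 0.15, 95% interval 0.30 to 0.98). The adjusted p was 0.0694 in edgeR and 0.00705 in DESeq2.

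*Slc43a2* (LAT4) had 372, 449.7 and 397 against 491, 587 and 476 normalized counts, without overlap (log2 fold change 0.35, SE 0.12, edgeR adjusted p = 0.145). An antisense gene shares 9.18% of its exons. *Slc43a3*, a purine carrier of the same family whose gene lies 73.0 kb from *Slc43a1*, had 1318 to 1761 normalized counts over the 6 mice and a log2 fold change of -0.013 (95% interval -0.31 to 0.29).

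All 4 tested members of SLC1 had a higher mean in the *Fmo5*-/- mice, as had 50.8% of all tested genes, and the median of their log2 fold changes was 0.57. Without *Slc1a3*, which did not reach the count cutoff in every WT library, the other 3 had a median of 0.52. Of the 4, 1 (*Slc1a5*) was higher at an unadjusted p under 0.05 in edgeR, as were 11.6% of all tested genes. All of the 4 but *Slc1a2* had a mean under 500 normalized counts. At that level 63.7% of all tested genes had a higher mean and 15.1% were higher at that p. *Slc1a5* (ASCT2, an exchanger of glutamine and other neutral amino acids) had 199, 147 and 205 normalized counts in the WT livers against 249, 367 and 234 in those of *Fmo5*-/- mice. The groups did not overlap, and the second *Fmo5*-/- mouse was the highest (log2 fold change 0.62, SE 0.21, adjusted p = 0.133 from edgeR and 0.0575 from DESeq2). Without that mouse the log2 fold change was 0.39 and the unadjusted edgeR p 0.0596. *Slc1a4* (ASCT1, an exchanger of serine, alanine and cysteine) ranged from 321 to 461 in the WT mice and stood at 687, 651 and 389 in the *Fmo5*-/- mice. The third *Fmo5*-/- mouse lay within the WT range (log2 fold change 0.52, SE 0.23, edgeR adjusted p = 0.235).

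*Slc1a2* (GLT-1, the glutamate carrier of astrocytes and of hepatocytes around the central vein) had 8113, 9630.0 and 5542 normalized counts in the WT livers against 10332, 10402 and 7377 in those of *Fmo5*-/- mice. Its WT mice ranged widely, the groups overlapped, and the log2 fold change was 0.27 (95% interval -0.24 to 0.78). It was 0.08 without the third WT mouse, 0.46 without the second and 0.42 without the third *Fmo5*-/- mouse. *Slc1a3* (GLAST) had at most 39.1 normalized counts in any mouse, with a log2 fold change of 0.98 and a SE of 0.53.

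The osmolyte and GABA carriers of SLC6 had estimates of both signs. *Slc6a13* (GAT2) had 13991, 13714 and 13227 normalized counts in the WT livers against 11944, 11835 and 11827 in those of *Fmo5*-/- mice. The groups did not overlap and the mice of each were close (SD 387 and 65.0), with a log2 fold change of -0.20 (SE 0.078, edgeR adjusted p = 0.179). *Slc6a12* (BGT1), whose gene begins 5.34 kb from the end of *Slc6a13*, had 4238, 4433 and 4671 against 4126, 3623 and 4195 normalized counts. It too did not overlap (log2 fold change -0.16, SE 0.087, edgeR adjusted p = 0.325). Abundant genes as a whole had estimates below 0. All tested genes in the highest bin of level had a median of -0.145 (lower quartile -0.270), and those in the next bin -0.126 (lower quartile -0.232). The ratio of *Slc6a13* to *Slc6a12* was 3.23 ± 0.25 in the WT mice and 3.15 ± 0.25 in the *Fmo5*-/- mice (SD, n = 3 each), on the RPKM scale, and overlapped.

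*Slc6a6*, the taurine carrier, had 5176, 4559.5 and 4331 against 6328, 4246 and 5758 normalized counts and overlapped (log2 fold change 0.22, SE 0.14). *Slc6a8*, the creatine carrier, had a log2 fold change of 0.34 (95% interval -0.0088 to 0.69). *Slc6a7*, a proline carrier of brain, reached a log2 fold change of 0.96 (SE 0.38, unadjusted p = 0.0325 from edgeR) on 6.35, 12.3 and 13.3 against 14.9, 20.2 and 27.5 normalized counts, close to the lower limit of what was tested. *Slc6a9*, the glycine carrier GlyT1, had a log2 fold change of -0.21, *Slc6a16* of -0.15 and *Slc6a4*, the serotonin carrier, of -0.40 on at most 19.1 normalized counts. *Ccdc24* on the opposite strand shares 27.8% of the exons of *Slc6a9*.

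Of the proton-coupled carriers, *Slc36a1* (PAT1, which exports amino acids from lysosomes) was the 1 row of the 18 with a mean of 500 or more that was higher at an unadjusted p under 0.05 in edgeR (5.56%, against 7.62% of all genes at that level), where 2 were lower (11.1%, against 17.6%). It had 2131, 2203 and 2157 normalized counts in the WT livers against 2408, 2584 and 2706 in those of *Fmo5*-/- mice. The groups did not overlap and the WT mice hardly varied (SD 36.4), with a log2 fold change of 0.25 (SE 0.076, adjusted p = 0.113 from edgeR and 0.145 from DESeq2). *Slc36a4* overlapped (log2 fold change 0.093, SE 0.13). *Slc7a6os*, the 1 tested row of the opposite-strand genes, did not overlap (log2 fold change 0.16, edgeR adjusted p = 0.261).

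The same livers differed in the markers of immune cells. All 8 Kupffer cell markers checked had a higher mean in the *Fmo5*-/- mice and an unadjusted edgeR p under 0.05, and *Clec4f* was called (log2 fold change 0.70, edgeR adjusted p = 0.0275), while DESeq2 called 7 of the 8 higher. Their summed normalized counts were 9045 to 10777 in the WT mice and 25980, 24689.9 and 14133 in the *Fmo5*-/- mice. The 3 tested neutrophil markers also had higher means, with *Csf3r* called (edgeR adjusted p = 0.0468) and DESeq2 calling *Csf3r* and *S100a9*. The sum of all 5 listed, the untested *Ly6g* and *Retnlg* included, was 141 to 246 in the WT mice and 295 to 584 in the *Fmo5*-/- mice. The 7 T and B cell markers had higher means with 0 called by edgeR, 3 at an unadjusted p under 0.05 and 2 called by DESeq2, and sums of 319 to 409.8 and of 470.3 to 1090.4. The sums for endothelial cells, stellate cells, cholangiocytes and hepatocytes overlapped between the genotypes. Of the 7 stellate cell markers, 6 had a higher mean, and *Hand2* (log2 fold change 0.41) and *Des* (0.34) did not overlap and had an unadjusted edgeR p under 0.05. Of the 7 endothelial markers, *Stab2* was higher (0.23) and *Oit3* lower (-0.29) at that p, and none of these 4 was called by edgeR or DESeq2. Of all tested genes, 50.8% had a higher mean, 11.6% were higher and 10.2% lower at that p, and 13.9% were higher without overlap. Called higher were 0.675% of all genes in edgeR and 4.75% in DESeq2. In whole liver, more cells of a type and more RNA per cell cannot be told apart.

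The third *Fmo5*-/- mouse had the lowest Kupffer, neutrophil and T and B cell sums of the *Fmo5*-/- mice. It was also the lowest of the 3 in 8 of the 11 transporters that were higher at an unadjusted p under 0.05, *Slc7a7*, *Slc7a8*, *Slc38a1* and *Slc1a5* among them (72.7%). It was the lowest in 67.4% of the 1944 genes that were higher at that p, so the share among the transporters is near that of all such genes. Without *Slc6a7* and *Slc7a6*, which did not reach the count cutoff in every WT library, it was the lowest in 7 of 9. The first *Fmo5*-/- mouse was the lowest in the other 3 (*Slc36a1*, *Slc43a1* and *Slc6a7*). The part of immune cells in the transporter values was not tested.

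**Figure D5:**
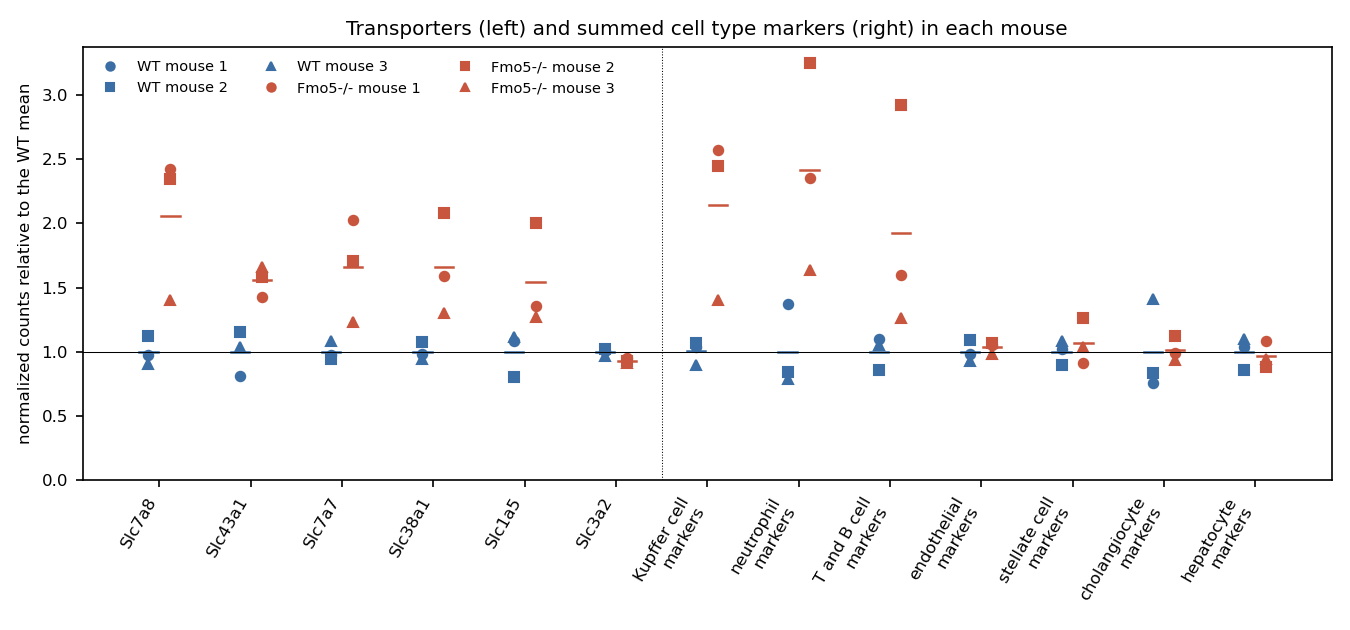
Normalized counts of 6 transporters (left) and of summed cell type markers (right) in each mouse, relative to the WT mean, with horizontal bars for the mean of a genotype. Kupffer sums of the *Fmo5*-/- mice stand at 2.57, 2.45 and 1.40 times the WT mean, and the third mouse (triangle) is also the lowest red point for *Slc7a8*, *Slc7a7*, *Slc38a1* and *Slc1a5*.

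Without the third *Fmo5*-/- mouse, edgeR called 3 transporters higher, *Slc7a8* (adjusted p = 0.0051), *Slc7a7* (0.0222) and *Slc1a4* (0.0372), where 4.45% of all genes tested without it were called. Leaving out any of the other 5 mice gave 0 calls, where 0.182% to 0.866% of all genes in those fits were called. Over all alternatives, the adjusted p of *Slc7a7* lay between 0.00288 and 0.209 and that of *Slc1a4* between 0.00401 and 0.505.

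Carriers of amino acids and peptides outside these families were also without a call in edgeR. Of 11 listed, 8 were tested, of which 2 were higher and 1 lower at an unadjusted p under 0.05 (either direction, 21.8% of all tested genes). DESeq2 called 1 higher and 1 lower, and 8.96% of all genes in its test. *Slc15a3*, a peptide and histidine carrier of lysosomes, had 322, 324 and 274 against 631, 710.4 and 385 normalized counts (log2 fold change 0.91, SE 0.21, adjusted p = 0.071 from edgeR and 0.00111 from DESeq2). The third *Fmo5*-/- mouse was again nearest to WT. *Slc17a5*, the lysosomal sialic acid carrier, had a log2 fold change of -0.31 (edgeR adjusted p = 0.0837, DESeq2 0.0432), and *Mfsd12*, a lysosomal cysteine carrier, of 0.27. Of 5 tested accessory proteins, 0 were called in edgeR or DESeq2, and 1 had an unadjusted p under 0.05 in edgeR (*Mfsd6*, log2 fold change -0.27).

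The pathways that report on amino acid supply were set beside the carriers. Of 23 listed targets of GCN2 and ATF4, 22 were tested, of which edgeR called 0 and DESeq2 1 (*Asns*). At an unadjusted p under 0.05, 0 were higher and 3 were lower, where 11.6% and 10.2% of all tested genes were, and the median log2 fold change was -0.037. *Asns*, asparagine synthetase and a classic ATF4 target, had 122, 132 and 179.9 normalized counts in the WT livers against 69.9, 90.9 and 65.8 in those of *Fmo5*-/- mice, without overlap (log2 fold change -0.93, SE 0.22, adjusted p = 0.0687 from edgeR and 0.00337 from DESeq2). The others were *Atf5* and *Cth* (log2 fold change -0.25 each). Both had means above 500 normalized counts, where 17.6% of all tested genes were lower at that p. *Cth* lies on chromosome 3, which carries *Fmo5*. The estimates furthest in the other direction, with overlapping groups, were those of *Stc2* (1.07, SE 0.53) and *Psat1* (0.72, SE 0.33), with edgeR adjusted p-values of 0.284 and 0.249.

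Of 31 tested genes through which mTORC1 senses amino acids, edgeR and DESeq2 called 0, with 2 higher and 4 lower at an unadjusted p under 0.05 (11.6% and 10.2% of all tested genes were) and a median of -0.049. Those higher were *Rragd* (log2 fold change 0.58), a Rag GTPase, and *Flcn* (0.26), its regulator. Those lower were *Rheb* (-0.25), *Rraga* (-0.22), *Sec13* (-0.22) and *Lamtor4* (-0.23). The shares depend on level. Of all tested genes with a mean of 500 or more, 7.62% were higher and 17.6% lower at that p, and of those under 500, 15.1% and 3.65%.

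Promoters were read for the core of the element that ATF4 binds with C/EBP factors, the letters TGATGNAA on either strand, in RefSeq windows of 300 bases (GRCm38.p6), 250 before to 50 after a start. The letters occur in 3.97% of the 32851 windows of the table. Of the 67 rows, 49 matched the table with 70 windows, 5 of which hold the letters (7.14%). These belong to 4 genes, *Slc7a7*, *Slc1a4*, *Slc7a11* and *Slc6a21*. The first 3 are printed here, in the direction of the gene with the letters in capitals. *Slc7a8* and *Slc43a1*, DESeq2's strongest calls, are printed beside them as windows that lack the letters.
*Slc7a7*, chr14:54417895-54418194, minus strand: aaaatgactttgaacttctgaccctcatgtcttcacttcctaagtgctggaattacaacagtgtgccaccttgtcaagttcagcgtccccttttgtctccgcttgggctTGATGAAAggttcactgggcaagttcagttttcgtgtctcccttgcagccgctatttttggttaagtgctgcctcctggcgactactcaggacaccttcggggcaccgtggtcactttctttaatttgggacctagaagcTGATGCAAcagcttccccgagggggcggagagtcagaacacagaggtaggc
*Slc1a4*, chr11:20332664-20332963, minus strand: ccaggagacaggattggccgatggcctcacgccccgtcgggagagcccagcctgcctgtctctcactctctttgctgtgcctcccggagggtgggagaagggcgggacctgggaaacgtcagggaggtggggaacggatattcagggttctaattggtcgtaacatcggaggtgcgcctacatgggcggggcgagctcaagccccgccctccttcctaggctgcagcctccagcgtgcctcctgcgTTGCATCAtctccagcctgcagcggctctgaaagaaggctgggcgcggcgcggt
*Slc7a11*, chr3:50443564-50443863, minus strand: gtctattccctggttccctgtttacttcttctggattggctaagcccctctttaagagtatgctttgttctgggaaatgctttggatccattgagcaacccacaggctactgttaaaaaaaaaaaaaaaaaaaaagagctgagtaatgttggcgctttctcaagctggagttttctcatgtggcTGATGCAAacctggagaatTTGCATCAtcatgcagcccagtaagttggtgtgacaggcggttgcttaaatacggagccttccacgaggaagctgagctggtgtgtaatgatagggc
*Slc7a8*, chr14:54781837-54782136, minus strand: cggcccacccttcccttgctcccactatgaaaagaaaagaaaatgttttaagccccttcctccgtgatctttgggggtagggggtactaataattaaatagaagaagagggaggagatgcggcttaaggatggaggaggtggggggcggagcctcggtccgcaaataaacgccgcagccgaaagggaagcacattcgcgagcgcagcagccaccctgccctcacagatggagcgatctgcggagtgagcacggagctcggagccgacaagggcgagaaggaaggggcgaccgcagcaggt
*Slc43a1*, chr2:84840073-84840372, plus strand: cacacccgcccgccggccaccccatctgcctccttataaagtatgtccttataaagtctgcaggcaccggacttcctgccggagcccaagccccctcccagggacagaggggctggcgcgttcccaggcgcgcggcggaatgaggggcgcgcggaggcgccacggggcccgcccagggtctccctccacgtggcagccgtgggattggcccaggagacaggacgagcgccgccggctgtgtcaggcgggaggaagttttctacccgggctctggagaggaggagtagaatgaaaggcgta

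The window of *Slc7a7* holds TGATGAAA with its first base at position -141 from the start and TGATGCAA at -1, and the latter also falls in the window of another *Slc7a7* start. That of *Slc1a4* holds the letters of the other strand, TTGCATCA, at -4. *Slc7a11* holds a match on each strand, at -66 and -47, and had 20 counts over the 6 libraries. Of the 14 rows with an unadjusted p under 0.05, 10 have a window in the table, and 1 of these, *Slc7a7*, holds the letters. Counted by gene, 4.51% of the 27025 genes in the table hold them, and 8.16% of the 49 rows. A match of letters is a description of the sequence and no evidence of binding.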

How the data were processed

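The authors clipped adapters, mapped single reads to mm10 with STAR 2.6.0c and deposited STAR's raw counts per gene, in 1 column for both strands and 1 column for each strand alone. Their comparison table holds deposited signal columns, which are normalized counts from DESeq2 (the counts of a library over 1 size factor), and the log2 fold changes, standard errors, Wald statistics and p-values of their DESeq2 test, which were not used. The annotation release is not given in the sources used here. Rows were chosen by symbol in that table and joined to the counts by Ensembl ID. Positions, exon lengths and overlaps are from GENCODE vM21, on the same build, which holds 54409 of the 54446 IDs. The first strand column held 49.9% to 50.1% of the stranded counts, so the libraries keep no strand and counts of both strands were analysed. Reads unmapped, mapped to several places, in no gene or in several genes were left out of library sizes.

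Genes were kept by filterByExpr (minimum count 10), normalized by TMM factors and tested by robust quasi-likelihood in edgeR 4.0.16 (R 4.3.3), *Fmo5*-/- over WT, with Benjamini-Hochberg adjustment over 16734 genes. The standard error is the log2 fold change over the square root of F. The study's own threshold was an adjusted p under 0.05 with a mean of 500 or more, from DESeq2. The alternatives were the DESeq2 1.42.0 Wald test, RLE factors in edgeR, TMM without the 20 most abundant genes, no filter on low counts, the limit of 500 before the fit, 1 strand, and each library left out. The biological coefficient of variation was 15%. On simulated data of 16734 genes for this comparison, edgeR recovered 20.9%, 85.1% and 100% of the genes with a log2 fold change of 0.5, 1 and 2. The changed genes were drawn only above a lower limit of mean count, and the spread of each gene was set by the trend over level. The shares therefore do not apply to rows of few counts, such as *Slc7a6* and *Slc1a3*, or to genes that vary more than the trend. The p-values measure the spread between these 6 liver samples.

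Values are given per mouse for rows called by either tool, with an unadjusted edgeR p under 0.05, or among the 12 highest in RPKM. Of other lists, calls by edgeR and at most 3 further genes per list are named, apart from the genes that the text counts. Calls by DESeq2 alone are in part given as counts only. The values of 1 untested row are not reported here. The members, gene lists and markers were chosen with earlier results of these data known. The ratios between carriers were chosen after the values had been seen.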

Additional observations from a re-analysis of the deposited data

How the results depend on the processing

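The number of transporters called higher in the *Fmo5*-/- mice depended on the processing. It was 0 in edgeR's quasi-likelihood test as reported. With DESeq2 it was 4 of 37, where 8.96% of all genes with an adjusted p were called, 4.75% higher. With no filter on low counts it was 6, where 5.82% of all genes with a count were called. Those 6 are among the 37, but that fit also tested the other rows with a count. It was 1 of 37 (*Slc7a8*) with TMM taken without the 20 most abundant genes, where 1.52% of all genes were called. With the reads of 1 strand it was 1 of 34 (*Slc7a8*), where 1.5% were. Without *Fmo5*-/- replicate 3 it was 3, where 4.45% of all genes were called. Over the 6 libraries left out in turn it ranged from 0 to 3, where 0.182% to 4.45% of all genes in those fits were called. The number called lower was 0 and became 2 (*Slc3a1* and *Slc7a15*) with no filter, and stayed at 0 whichever library was left out. With means under 500 left out before fitting, 18 rows were tested, of which 4 did not overlap (22.2%, against 29.2% of all genes in that fit), with a median log2 fold change of 0.027. The same rows had a median of -0.039 in the fit as reported, so this median turned sign, while that of all 7819 genes of the level went from -0.062 to 0.0017. With the reads of 1 strand, 12 of 34 rows did not overlap (35.3%, against 25.9% of all genes in that fit). Leaving out a library gave 18 to 24 rows without overlap (48.6% to 64.9%, against 34% to 41.9% of all genes in those fits), where fewer mice make non-overlap more frequent, and medians of 0.17 to 0.24. Over the alternatives, the log2 fold change of *Slc7a8* ranged from 0.91 to 1.25 (edgeR or DESeq2 adjusted p from 5.3e-07 to 0.148) and that of *Slc43a1* from 0.51 to 0.75 (from 0.00157 to 0.185). Among the alternative values of single transporters, 397 kept sign and side of the threshold, 17 passed it and 8 turned sign. Those were *Slc36a4* (-0.04 without *Fmo5*-/- replicate 1, with 0.18 at the other end of the libraries left out), *Slc38a7* (0.029 without *Fmo5*-/- replicate 2, lowest -0.12), *Slc38a2* (0.12 without WT replicate 2 and 0.013 without *Fmo5*-/- replicate 2, lowest -0.19) and *Slc43a3* (0.055 with that limit of 500, 0.10 without WT replicate 2, 0.026 without *Fmo5*-/- replicate 1 and 0.068 without *Fmo5*-/- replicate 3, lowest -0.15). Leaving out a library moved the log2 fold change of 19 transporters by over 1.5 times or turned its sign. Beside those given so far and *Slc1a2*, *Slc1a5*, *Slc3a1*, *Slc7a2* and *Slc7a15*, these were *Slc38a3*, *Slc38a6*, *Slc38a9*, *Slc38a10*, *Slc6a6*, *Slc6a8*, *Slc6a9*, *Slc6a12*, *Slc6a16* and *Slc7a4*, of which edgeR called 0. Among them, *Slc38a3* was 0.12 without *Fmo5*-/- replicate 1 and 0.29 without replicate 2, and *Slc7a4* 0.20 without WT replicate 2 and 0.72 without WT replicate 3. The causes were not tested. No paired analysis was possible because the labels give the mice no shared numbers. The rows *Slc7a1*, *Slc7a6*, *Slc6a7* and *Slc1a3*, with means under 100 normalized counts, had log2 fold changes with standard errors of 0.24, 0.34, 0.38 and 0.53.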
